A study of Homo sapiens with 28 samples.

Results

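The comparison set the 2 H3K27ac peak lists whose file and peak names carry YT, the YAP-TFE3 fusion, against the 2 whose names carry YAP5SA, an active form of YAP. These are 4 of the 14 peak lists that were analysed in this series of 28 samples, of which the other 14 are inputs that were not analysed here. The members were chosen by those names alone. GEO's labels name other constructs. Both YT-named lists are labelled TFE3, and both YAP5SA-named lists are labelled YAP_TFE3. In 14 of 14 lists the construct in the names differed from the label. Taken in the order of the samples, the constructs in the names run alphabetically from CAMTA1 to YT, while the labels do not run alphabetically. Which naming is right was not tested. All lists are therefore called by the construct in their names, and every difference described below holds for those lists rather than for a construct.

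All samples came from SW872, an established human liposarcoma line. The cells were stably transduced by retrovirus with Flag-tagged constructs or an empty vector and selected as pooled lines, so every group carries a vector and drug selection. They were grown to 90% confluence. The labels except CAMTA1, as collected below confluence, whereas the methods for ChIP list it with the rest. YAP5SA is full-length YAP in which the serines phosphorylated by the LATS kinases are replaced by alanine. YAP-TFE3 joins the N terminus of YAP, which binds TEAD transcription factors, to the C terminus of TFE3. The 10 lists outside the comparison carry CAMTA1, EV (empty vector), TAZ4SA (an active form of TAZ), TC (the TAZ-CAMTA1 fusion) and TFE3 in their names, with 2 lists for each. Their labels are Empty_Vector, TAZ4SA, TAZ_CAMTA1, CAMTA1 and YAP5SA, in that order. The levels of the transduced genes were not measured in these files, so no list could be checked against its construct.

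YAP and TAZ are transcriptional coactivators at the end of the Hippo pathway. When the LATS kinases are inactive they enter the nucleus and bind TEAD factors, mostly at enhancers that lie far from promoters. YAP-TFE3 is a fusion protein of epithelioid hemangioendothelioma, a vascular sarcoma, and the TFE3 portion contributes a transactivation domain and the basic helix-loop-helix and leucine zipper of a transcription factor. H3K27ac, acetylation of lysine 27 on histone H3, marks active enhancers and promoters. A peak list therefore shows where chromatin was acetylated in cells of one line, and not where the transduced protein bound.

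The YT-named lists differed from each other far more than the YAP5SA-named lists did. The YT-named list labelled replicate 1, called the short YT list, held 5721 peaks over 3.70 Mb. The YT-named list labelled replicate 2, called the longer YT list, held 47308 peaks over 59.4 Mb. YAP5SA-named list 1 held 57505 peaks over 81.1 Mb, and YAP5SA-named list 2 held 39653 peaks over 51.6 Mb. The longer YT list thus lay between the YAP5SA-named lists in number and in bp covered. The mean log2 number of peaks differed by −1.54 (YT minus YAP5SA, exact two-sided permutation p = 0.667). With 2 lists against 2 there are 6 splits and the smallest exact two-sided p is 0.333, so this permutation test could not pass 0.05. Without the short YT list the difference in number was −0.01.

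To remove the number of peaks from the comparison, the 5721 peaks with the highest −log10 p were taken from each list. The weakest peak kept had a −log10 p of 4.24 in the short YT list, 26.9 in the longer YT list, 38.3 in YAP5SA-named list 1 and 24.7 in YAP5SA-named list 2. The median width of these top peaks was 486 bp in the short YT list and 2590 bp in the longer YT list, against 3478 bp and 2575 bp in YAP5SA-named lists 1 and 2. Broad domains of more than 10 kb numbered 0 and 175 in the YT-named lists and 468 and 152 in the YAP5SA-named lists. The median fold enrichment, the summit signal relative to its local background, was 4.56 and 13.2 in the YT-named lists and 14.6 and 11.4 in the YAP5SA-named lists. The groups overlapped on each of these measures, because the longer YT list stood above YAP5SA-named list 2. The mean log2 differences were −1.42 for width and −0.74 for fold, each with an exact two-sided permutation p of 0.667. Without the short YT list they were −0.21 and 0.03, so the direction of the fold turned.

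Fragment counts at the summits were lowest in the short YT list, but its background was not. The fold and the p-value of a peak were solved for a whole fragment count at its summit. The count found gave back the listed −log10 p to within 0.001 in 100% of peaks. The median summit count of the top peaks was 18 in the short YT list and 46 in the longer YT list, and it was 66 and 46 in YAP5SA-named lists 1 and 2. The background, taken at its 1st percentile over peaks, was 2.09 and 1.68 fragments in the YT-named lists against 2.43 and 2.01 in the YAP5SA-named lists. The short YT list therefore had the fewest fragments at its summits, while its background was the second highest. This background was taken over called peaks only, which differ in number between the lists, and it does not measure depth. Read totals were not used here. Top peaks outside chromosomes 1 to 22 and X numbered 42 in the short YT list and 4 or 5 in each of the others. The part of depth or of enrichment in the differences between the lists was not tested.

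Most top peaks of a YT-named list overlapped a top peak of a YAP5SA-named list. Of the top peaks of the short YT list, 65.8% (95% Wilson interval 64.6 to 67.0, counting error only) overlapped a top peak of YAP5SA-named list 1 and 67.2% (66.0 to 68.4) one of list 2. For the longer YT list the shares were 65.5% (64.3 to 66.7) and 67.9% (66.7 to 69.1). The mean over the 4 ordered pairs was 66.6% ± 1.16 (SD), so the YT-named lists gave similar values although their summit counts differed. Of the short list's top peaks 76.1% (75.0 to 77.2) overlapped a top peak of the longer YT list, against 60.8% (59.5 to 62.1) in the other direction. The YAP5SA-named lists shared 76.3% and 78.6% with each other. In the reverse direction, 51.2% and 53.9% of the YAP5SA-named top peaks met a top peak of the short YT list, and 65.0% and 68.7% met one of the longer YT list.

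With the 3 longer lists as targets, most top peaks without a counterpart among the top peaks had a weaker one further down the list. The short YT list was taken whole, so nothing lay further down it. When a top peak was looked for anywhere in the other full list, 99.9% and 99.8% of the top peaks of the longer YT list had a peak in YAP5SA-named lists 1 and 2. Conversely, 97.6% and 98.3% of the YAP5SA-named top peaks had a peak somewhere in the longer YT list. The same shares for the short YT list in the full YAP5SA-named lists were 97.5% and 96.7%. Only 6 and 14 of the 5721 strongest peaks of the longer YT list lacked any counterpart in the YAP5SA-named lists. The YAP5SA-named lists had 139 and 96 top peaks without a counterpart in the longer YT list.

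By bp covered, the Jaccard index (the bp in both divided by the bp in either) of the top peaks was 0.155 for the YT-named pair and 0.506 for the YAP5SA-named pair. The longer YT list reached 0.366 and 0.414 with the YAP5SA-named lists, and the short YT list reached 0.0991 and 0.141. By this index the longer YT list was nearer to either YAP5SA-named list than to its own replicate. The bp covered fixed that order in advance. The top peaks covered 3.70 Mb in the short YT list and 19.1 Mb in the longer YT list, so their index could not reach 0.366. The other 3 lists covered 18.9 to 26.6 Mb, which limits how high any index with the short list can be. By peaks shared (mean of both directions), the YT-named pair was at 68.4%. The longer YT list was at 65.3% and 68.3% with the YAP5SA-named lists. The mean index within constructs exceeded that between them by 0.0757 (exact one-sided permutation over 3 pairings, p = 0.333, the smallest they can give). Without YAP5SA-named list 1 the difference was −0.122 and without list 2 it was −0.0774, so its sign rests on the YAP5SA-named pair.

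**Figure D1:**
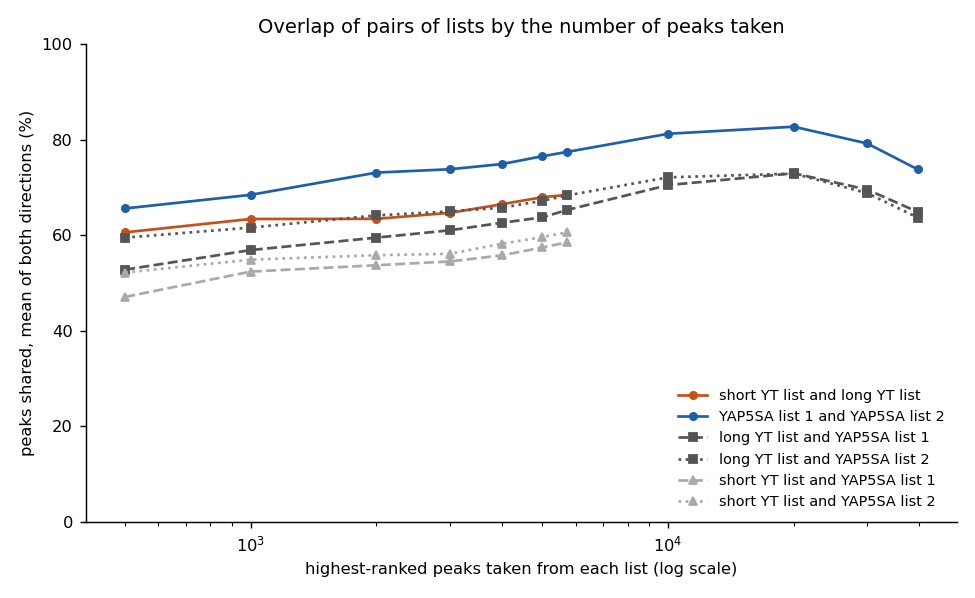
Share of peaks that a pair of lists had in common (vertical axis, %, mean of both directions) against the number of highest-ranked peaks taken from each list (horizontal axis, log scale). The YAP5SA-named pair lay highest throughout and reached 82.7% at 20000 peaks, while the longer YT list reached 73.0% and 72.9% with the YAP5SA-named lists there. The short list could be followed to 5721 peaks.

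The overlap rose up to 5721 peaks in every pair, and among the 3 longer lists it rose up to 20000 peaks and then fell. At 500 peaks per list the YT-named pair shared 60.6% and the YAP5SA-named pair shared 65.6%, while the longer YT list shared 52.8% and 59.5% with YAP5SA-named lists 1 and 2. At 5721 peaks these values were 68.4%, 77.4%, 65.3% and 68.3%. At 39653 peaks the YAP5SA-named pair shared 73.8%, and the longer YT list shared 64.9% and 63.7% with the YAP5SA-named lists. The YAP5SA-named pair shared more than any pair of a YT-named with a YAP5SA-named list at every number taken.

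Merging the top peaks of the 4 lists gave 9087 regions. A top peak of all 4 lists was found in 2388 of them (26.3%, 95% Wilson interval 25.4 to 27.2). A further 798 regions held a top peak of the longer YT list and both YAP5SA-named lists but not of the short YT list. Both YT-named lists and neither YAP5SA-named list had a top peak in 473 regions (5.21%, 4.77 to 5.68). Both YAP5SA-named lists and neither YT-named list had one in 918 regions (10.1%, 9.50 to 10.7). These are called the YT-only and the YAP5SA-only regions. Regions with a top peak of a single list numbered 890 and 861 for the short and the longer YT list, and 773 and 484 for YAP5SA-named lists 1 and 2.

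**Figure D2:**
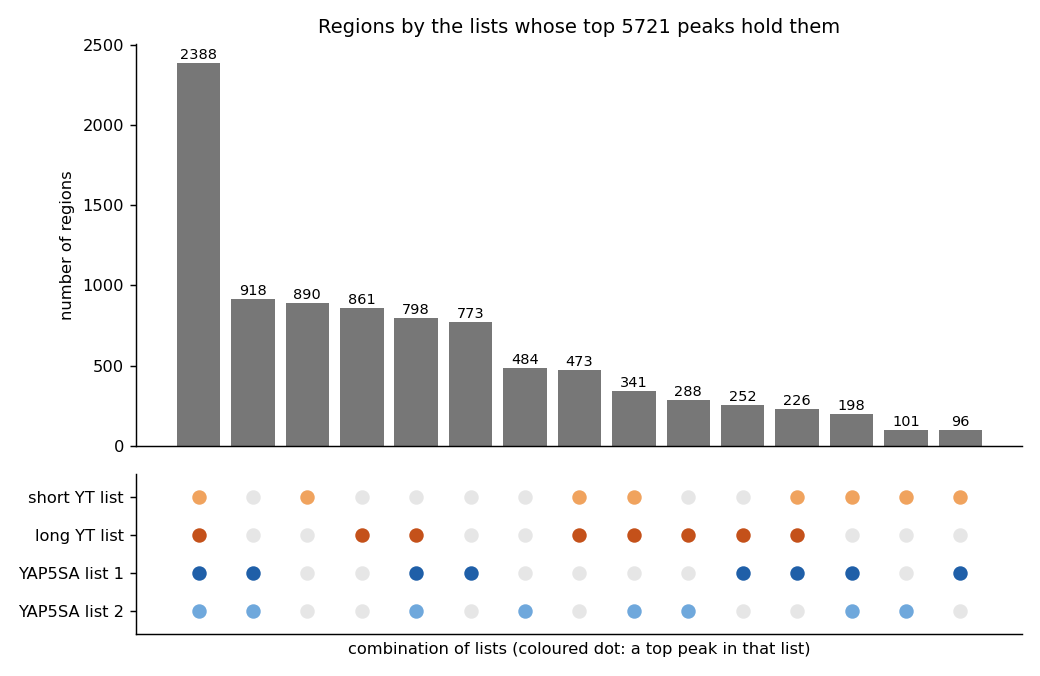
Number of merged regions (vertical axis) for each combination of lists that held a top peak in them, with coloured dots below marking the lists. Regions of all 4 lists (2388) were the most frequent, followed by the 918 YAP5SA-only regions, and the 473 YT-only regions stood in the eighth place.

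The counts of exclusive regions depended on every list. Without the short YT list 1334 regions were held by the longer YT list alone and 1116 were YAP5SA-only. Without the longer YT list these numbers were 1440 and 1731. Without YAP5SA-named list 1 they were 709 and 1484, and without list 2 they were 819 and 1706. Leaving out a list lets a region enter a class on fewer lists, so larger counts follow from the construction. YAP5SA-only regions outnumbered YT-only regions in the comparison of all 4 lists and in 3 of these 4 settings, and the order was the opposite without the short YT list.

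The place of the comparison within the series depended on the measure. Over all 21 pairs of labels, the regions exclusive to either member made up 6.63% to 26.4% of the merged regions (median 13.1%), and they made up 15.3% here, the seventh highest. The share of regions with a top peak in all 4 lists, 26.3%, was the second lowest of 24.4% to 44.8%, and the mean Jaccard index between constructs, 0.255, was the third lowest of 0.218 to 0.493. The lowest exclusive share of the 21 was for the YAP5SA-named lists against the TAZ4SA-named lists. Pairs that share a construct share its lists, so these values are not independent.

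At the strongest shared site, chr5:137908632-137912649 (GRCh37/hg19, as are all coordinates given), the peak was the first of every list. Its summit count was 160 and 271 in the YT-named lists and 354 and 260 in the YAP5SA-named lists, with a fold of 25.2 and 41.0 against 48.1 and 27.4. The peak was 1604 bp wide in the short YT list, the narrowest of the 4. The next shared regions were chr1:17229761-17233065, chr5:133510366-133514145, chr7:2392673-2396532 and chr7:5568065-5573272, whose ranks lay between 2 and 12 in all 4 lists. All 5 were among the top 5721 peaks of all 10 other lists. Within the 2388 shared regions the order of strength was more alike within a construct. Spearman's rho of the ranks, given as a description over regions that share libraries, was 0.634 for the YT-named pair and 0.729 for the YAP5SA-named pair, and 0.473 to 0.608 between them. Summits coincided closely, with a median distance of 50 to 81 bp and 69.3% to 79.0% of summits within 200 bp.

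The YT-only regions were quantitative differences in rank. A peak was present in YAP5SA-named list 1 at 472 of the 473 and in list 2 at 471, and no YT-only region lacked a peak in both. Their median rank was 3377 and 4043 in the YT-named lists, against 9503 and 8817 in the YAP5SA-named lists, where the nearest stood at rank 5724 in each. Beyond rank 11442, which is 2 times the number taken, or without a peak were 153 regions (32.3%) in YAP5SA-named list 1 and 118 (24.9%) in list 2, and 61 (12.9%) in both. At these regions the median fold was 4.43 and 12.0 in the YT-named lists, against 8.12 and 6.94 in the YAP5SA-named lists. The short YT list thus had the lowest median fold of the 4 although the regions were chosen by its ranks. The median peak was 2507 bp wide in the longer YT list and 1839 and 1559 bp in the YAP5SA-named lists. Ranks, folds and widths in these 4 lists follow from how the regions were chosen and are given as a description.

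The YAP5SA-only regions lay far down the longer YT list. Their median rank was 3085.5 and 3445.5 in the YAP5SA-named lists and 11074.5 in the longer YT list among the 874 with a peak there. No peak was called in the longer YT list at 44 of the 918, and 464 (50.5%) were beyond rank 11442 in that list or had no peak. None had a peak in the short YT list, which was taken whole. The median fold was 14.6 and 11.0 in the YAP5SA-named lists against 6.76 in the longer YT list. The merged regions had a median length of 5353 bp against 2507 bp for the YT-only and 3882.5 bp for the shared regions. A single peak of more than 10 kb covered 85 of them (9.26%) in YAP5SA-named list 1 and 16 (1.74%) in list 2, and 1 in the longer YT list. Ranks, folds, widths and lengths here also follow from how the regions were chosen and merged, and are given as a description.

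**Figure D3:**
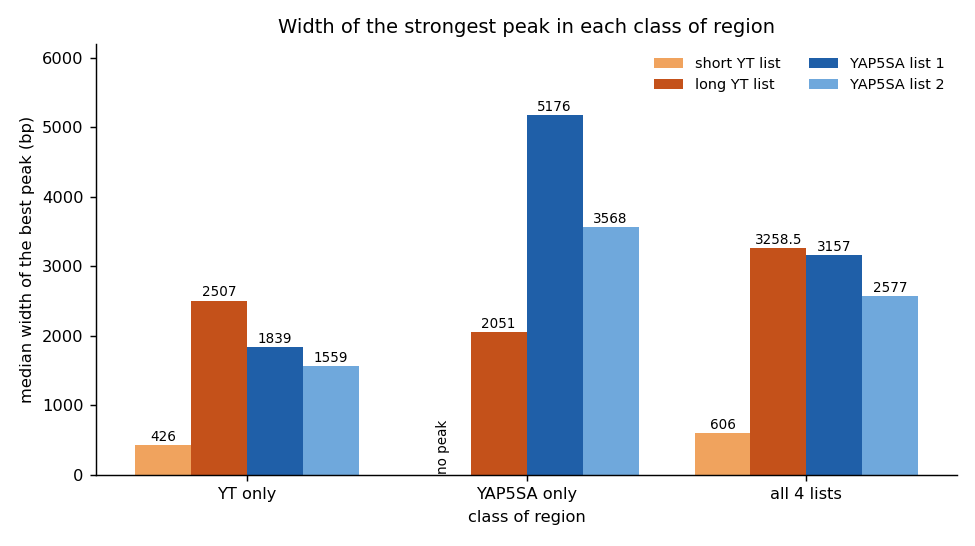
Median width in bp (vertical axis, from 0) of the strongest peak that each list had in the YT-only, YAP5SA-only and shared regions, one bar for each list. The classes were chosen by the top peaks of these same lists. In the YAP5SA-only regions the widths were 5176 and 3568 bp in the YAP5SA-named lists against 2051 bp in the longer YT list, and the short list had no peak there. In the shared regions the longer YT list was at 3258.5 bp, above both YAP5SA-named lists at 3157 and 2577 bp.

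In the shared regions the longer YT list had no narrower peaks than the YAP5SA-named lists, and its median fold of 15.8 lay between theirs of 17.0 and 13.3. The short YT list had a median width of 606 bp and a median fold of 5.50 there. Its peaks were narrow in both classes where it had any, and the widths of the longer YT list are the ones that can be set beside those of the YAP5SA-named lists.

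By the rule that takes the regions whose weaker list ranked best, the first YT-only region was chr9:125589153-125591563. It stood at rank 1082 in the short and 493 in the longer YT list, and at 8864 and 6460 in YAP5SA-named lists 1 and 2. The fold was 6.39 and 22.2 in the YT-named lists and 6.77 and 7.61 in the YAP5SA-named lists, from summit counts of 24, 73, 49 and 35. The longer YT list therefore stood alone in fold at this site. All 10 of the other lists also had it among their top peaks, and in YAP5SA-named list 2 it stood not far past the number taken.

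The second, chr11:20384458-20391132, was at ranks 976 and 1185 in the YT-named lists and 5945 and 6821 in the YAP5SA-named lists, just past the number taken. The third, chr5:158524213-158528724, was far down in both YAP5SA-named lists, with ranks of 1301 and 667 against 12363 and 14003. Its fold was 5.15 and 18.0 in the YT-named lists and 6.37 and 4.72 in the YAP5SA-named lists, and its peak was 4512 bp wide in the longer YT list but 829 and 894 bp in the YAP5SA-named lists. It was a top peak in 8 of the other 10 lists, all but those named TAZ4SA.

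The fourth, chr11:469326-471260, was at ranks 1090 and 1372 against 17399 and 6215, so the YAP5SA-named lists themselves were far apart. The remaining 6 were chr7:152161069-152162540, chr7:14025720-14032798, chr9:139742456-139744731, chr7:27778762-27783171, chr2:232477030-232480123 and chr11:67119052-67125000. Over all 10 the ranks ran from 976 to 1695 in the short YT list and from 493 to 1769 in the longer YT list. In the YAP5SA-named lists they ran from 5852 to 17399 and from 6215 to 14003. Each of the 10 was a top peak in 6 to 10 of the other 10 lists.

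**Figure D4:**
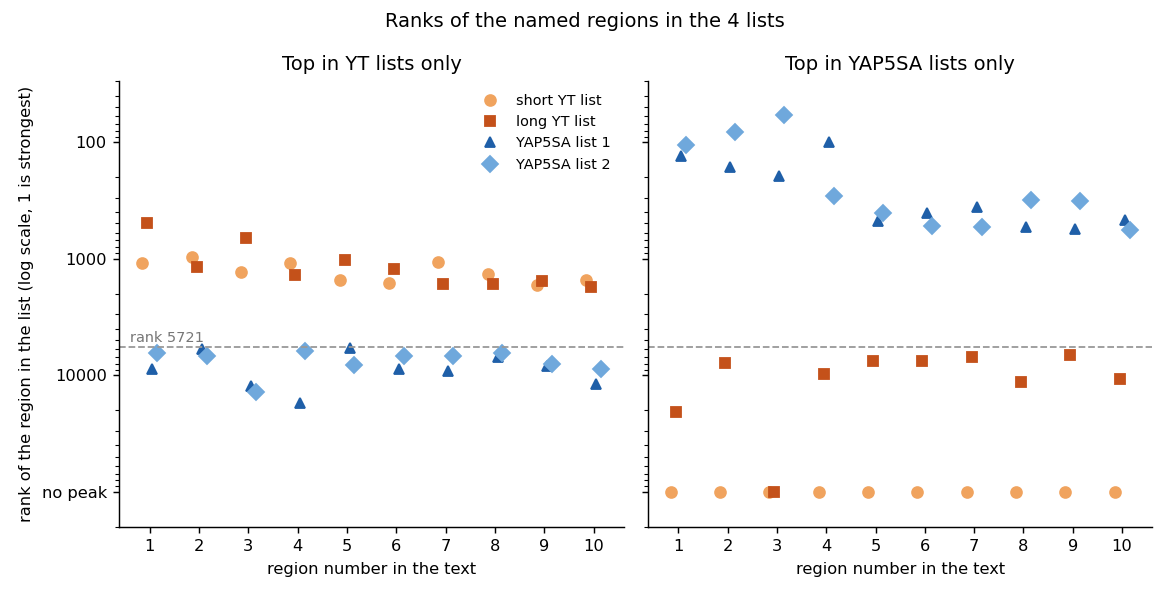
Rank in each of the 4 lists (vertical axis, log scale, the strongest at the top) of the 10 named YT-only and the 10 named YAP5SA-only regions (horizontal axis, in the order of the text). The dashed line marks rank 5721. The YAP5SA-named lists reach ranks of 59 to 573 in the right panel, above any rank of the YT-named lists for the YT-only regions except 493, and the longer YT list had no peak at region 3.

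The named YAP5SA-only regions ranked higher, but they are the best 10 of 918 regions, against 10 of 473 for the YT-only class. Over the whole classes the median ranks were 3085.5 and 3445.5 in the YAP5SA-named lists. They were 3377 and 4043 in the YT-named lists for the YT-only regions. The first, chr11:126859631-126867393, was at ranks 131 and 107 in the YAP5SA-named lists, with a fold of 24.0 and 22.9 and summit counts of 161 and 100. In the longer YT list it was at rank 20546 with a fold of 4.52 and a count of 16, and the short YT list had no peak. The peak was 7763 and 7441 bp wide in the YAP5SA-named lists and 897 bp in the longer YT list. Of the other 10 lists, both TAZ4SA-named lists and a CAMTA1-named list had it among their top peaks.

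The second, chr7:576543-580803, was at ranks 165 and 82 in the YAP5SA-named lists and 7911 in the longer YT list, where the fold was 5.61 against 21.9 and 22.6. This site was also a top peak in 7 of the other 10 lists. The third, chr5:165779633-165787627, had no peak in either YT-named list. It was at ranks 195 and 59 in the YAP5SA-named lists, with summit counts of 204 and 169. Its fold was 13.2 and 12.3 over a local background of 14.6 and 12.8 fragments, the highest background of the 10 named YAP5SA-only regions in each list. Both TAZ4SA-named lists had it among their top peaks, no other list did, and 7 of the 10 had a peak of any strength. The part of that background in the result was not tested.

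The fourth, chr1:27092788-27104416, had a fold of 39.0 in YAP5SA-named list 1, the highest of the named YAP5SA-only regions, and 22.8 in list 2, against 8.10 in the longer YT list. Its peak was 11629 and 6034 bp wide in the YAP5SA-named lists and 4485 bp in the longer YT list. The eighth, chr5:73057969-73064857, was at ranks 539 and 312 against 11500, and of the 10 other lists only the 2 named TAZ4SA had it among their top peaks. The longest was the tenth, chr9:114793775-114814763, where peaks of 19089 and 10370 bp in the YAP5SA-named lists stood beside one of 2811 bp in the longer YT list. The others were chr20:49150356-49162255, chr2:217965752-217974463, chr11:69231512-69238950 and chr7:44414274-44426095. All 10 were top peaks in both TAZ4SA-named lists, and each was a top peak in 2 to 7 of the 10 other lists.

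The other 10 lists were not used to choose the regions and show where else the exclusive sites were strong. The share over all 9087 merged regions is not given for these lists, so the values compare only classes and lists with each other. YAP5SA-only regions were among the top peaks most often in the TAZ4SA-named lists, labelled TAZ_CAMTA1, at 61.8% (95% Wilson interval 58.6 to 64.9) and 61.2% (58.0 to 64.3). The CAMTA1-named lists followed with 27.2% and 34.0%, then the TC-named lists with 19.6% and 17.4%, the EV-named lists with 14.9% and 15.4% and the TFE3-named lists with 7.95% and 15.8%. The TAZ4SA-named pair therefore stood above all 8 others, and the last 3 pairs lay close to each other or overlapped.

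YT-only regions had nearly the reverse order. They were top peaks in 72.5% (68.3 to 76.3) and 64.9% (60.5 to 69.1) of cases in the TFE3-named lists, labelled YAP5SA, and in 65.8% and 61.7% in the EV-named lists. The TC-named lists gave 60.9% and 57.1% and the CAMTA1-named lists 51.4% and 47.6%. The TAZ4SA-named lists gave 26.8% (23.1 to 31.0) and 34.2% (30.1 to 38.6), below all 8 others. The YT-only regions were thus top peaks in the EV-named lists, and in the lists labelled Empty_Vector, more often than the YAP5SA-only regions were. Without the short YT list the gap in the lists labelled Empty_Vector was smaller, at 42.3% and 40.4% for the regions of the longer YT list against 33.2% and 40.0% for the YAP5SA-only regions. The shared regions were top peaks in 90.4% to 95.9% of cases in all 10 lists.

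**Figure D5:**
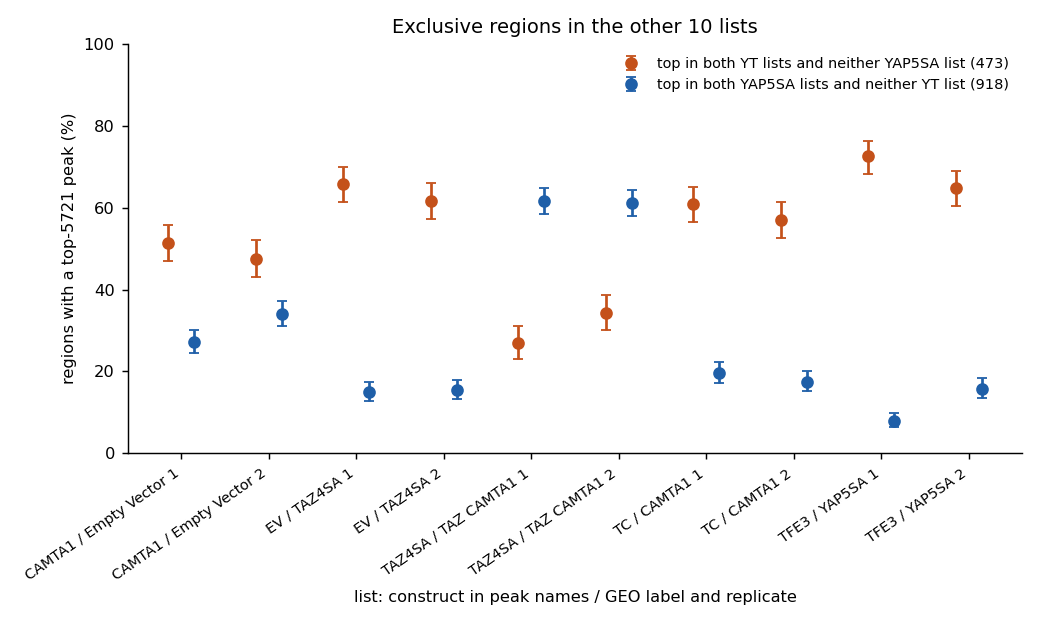
Percentage of the 473 YT-only and the 918 YAP5SA-only regions that had a top peak in each of the other 10 lists (vertical axis), named by the construct in the peak names and the label with its replicate (horizontal axis), with 95% Wilson intervals as bars. Only in the TAZ4SA-named lists, at 61.8% and 61.2% against 26.8% and 34.2%, did the YAP5SA-only regions lie above the YT-only regions.

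No test is given for this order, since each construct has 2 lists and the order was read from the values. By the mean of both TAZ4SA-named lists, the YAP5SA-only regions stayed above the YT-only regions with each of the 4 lists left out in turn, and came nearest, at 46.3% against 42.6%, without YAP5SA-named list 2. In that setting the order turned in the second TAZ4SA-named list, at 44.7% against 46.4%. In the EV-named lists the order turned without the longer YT list. There the YAP5SA-only regions were at 45.2% and those of the short YT list at 41.9% (means of both EV-named lists). Without the short YT list the EV-named means were 18.8% for the YAP5SA-only and 58.8% for the YT-only regions. The greater length of the YAP5SA-only regions makes an overlap with any list easier, and its part in these shares was not tested. A peak of any strength was present at 92.0% to 100% of the YT-only and at 80.3% to 99.9% of the YAP5SA-only regions in the 10 lists.

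Some chromosomes held more of the exclusive regions of one class than of the other, which was not tested. The share of top peaks on a chromosome was higher in both YAP5SA-named lists than in both YT-named lists for 7 of 23 chromosomes (30.4%), lower for 3 (13.0%), and overlapped for 13. Chromosome 5 held 6.66% and 6.69% of the top peaks of the YT-named lists and 7.73% and 7.20% of those of the YAP5SA-named lists. It held 9.69% of the YAP5SA-only regions, 5.29% of the YT-only regions and 6.87% of all regions. Chromosome 9 held 7.08% of the YAP5SA-only regions against 4.02% of the YT-only regions and 5.39% of all regions. Chromosomes 17 and 19 leaned the other way, with 4.36% and 2.51% of the YAP5SA-only regions against 7.40% and 6.13% of the YT-only regions. These 2 chromosomes held 5.50% and 4.48% of all regions. On chromosome 19 the lists themselves overlapped, at 4.47% and 5.51% of top peaks in the YT-named and 3.72% and 4.53% in the YAP5SA-named lists.

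Exclusive regions also lay near each other in places. Within 100 kb of another region of the same class were 219 of the 918 YAP5SA-only regions (23.9%), 65 of the 473 YT-only regions (13.7%) and 1046 of the 2388 shared regions (43.8%). These shares rise with the number of regions in a class and were not compared by a test. Groups of at least 3 regions numbered 22 for the YAP5SA-only and 6 for the YT-only class.

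The largest groups had 4 regions and were singled out after their values were seen. The YAP5SA-only groups lay at chr2:39730235-39798483, chr5:5218049-5345157, chr5:52652605-52768743, chr5:71657922-71809378 and chr20:59758728-59874093. At chr2:39730235-39798483 the YAP5SA-named lists had 20 and 14 peaks, the best at ranks 2690 and 2897, and the longer YT list had 13 peaks of which the best was at rank 9233. At chr5:71657922-71809378 the groups were less apart, since the longer YT list had a peak at rank 330 among its 21. The YT-only group lay at chr19:18414737-18530605, with 5 top peaks in each YT-named list and none in the YAP5SA-named lists, where the best ranks were 7176 and 6527.

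The longer YT list was also compared alone with the YAP5SA-named lists, at the length of the shortest of the 3, 39653 peaks. Of its peaks 68.5% (95% Wilson interval 68.1 to 69.0) overlapped YAP5SA-named list 1 and 62.6% (62.1 to 63.1) list 2. The YAP5SA-named lists shared 67.3% and 80.2% with each other, and 61.2% and 64.8% of their peaks overlapped the longer YT list. The Jaccard index was 0.454 and 0.463 with the longer YT list and 0.547 between the YAP5SA-named lists. With a single YT-named list there is no replicate check on these differences. Of the 39653 peaks, 10440 (26.3%) met a peak of neither YAP5SA-named list.

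Taking all peaks, 13478 of the 47308 peaks of the longer YT list (28.5%, 95% Wilson interval 28.1 to 28.9) had no YAP5SA-named counterpart. They were weak. Their median rank was 35650, 1 stood among the top 5721 peaks, and the median width was 413 bp against 1013 bp for peaks with a counterpart. Their median fold was 3.54 and their median summit count 11, against 5.17 and 17. In the opposite direction, 5840 of 71553 merged regions (8.16%) had a peak in both YAP5SA-named lists and none in the longer YT list, and 44 of these had a top peak in both.

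The single strong peak of the longer YT list without a counterpart was chr7:148659964-148660429, at rank 4913 with a fold of 9.31 and a summit count of 41. It was 466 bp wide, and 7 of the other 10 lists had a peak there, including a top peak in a TFE3-named list. The next by rank were chr12:49182925-49183486, chr19:55678124-55678470, chr16:66397902-66399467 and chr15:98046828-98048380, at ranks 6695 to 7659, and none was a top peak in another list. The region at chr15 had no peak in any of the 10 others. In the opposite direction, the region at chr5:165779633-165787627 described above was the strongest in both YAP5SA-named lists without a peak in the longer YT list. The second was chr22:50344343-50349609, at ranks 805 and 937 with a fold of 25.6 and 17.7 over a local background of 2.43 and 2.32 fragments, and it was a top peak in a TAZ4SA-named list. This region was named after its values were seen.

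The weak peaks of the longer YT list recurred mostly in the EV-named lists, which had a peak at 76.6% and 68.7% of the 13478. The TAZ4SA-named lists had one at 1.27% and 18.5%, and the other 6 lists at 9.72% to 30.9%. The EV-named lists are the longest of the series, with 102009 and 98992 peaks, and the lowest share came from the TAZ4SA-named list of 21748 peaks. The regions of the YAP5SA-named pair without a peak in the longer YT list were found in 62.7% and 61.4% of cases in the EV-named lists, and in 20.5% and 71.1% in the TAZ4SA-named lists, which have 21748 and 48372 peaks. The TC-named list of 47974 peaks had a peak at 31.5% of the latter regions. The part of list length was not tested.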

How the data were processed

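H3K27ac ChIP-seq was analysed from 14 peak lists of SW872 cells, in 7 labels of biological duplicates. As the methods describe, the authors used Atropos for trimming, BWA-MEM for alignment to GRCh37/hg19 and MACS2 in its paired-end mode for peak calling, after discarding reads that mapped to several places or to greylisted regions. The methods for ChIP name antibodies to acetylated H3K27 and to the Flag tag, and the labels' protocol also names one to the Flag tag. The methods state that replicates were pooled and a q-value limit of 0.1, yet the deposited lists are separate for each library and their lowest −log10 q was 1.30, a q of 0.05. Each deposited line gives an interval with its summit, the fold there (a ratio to local background), and the −log10 of its p-value and of its q-value, all written by the authors' peak caller. Replicate numbers in the peak names are 2 and 3 for YT and 1 and 2 for YAP5SA, while the labels give 1 and 2 to each.

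The members, the lists and the rules were chosen with earlier results of these data known. Each list was ranked by −log10 p, and the first 5721 peaks were kept, the length of the shortest list. Apart from this, the longer YT list was compared at 39653 peaks and in full. Overlap meant at least 1 bp. Regions were the merged top peaks of the 4 lists. A region entered the YT-only or YAP5SA-only class with a top peak in both lists of one construct and in neither of the other. Named regions were the 10 of each class whose weaker list ranked best, the 5 such shared regions and the 5 best-ranked peaks of the longer YT list without a counterpart. Summit fragment counts k were solved from the fold, (k + 1) over (background + 1), and the Poisson tail. Read totals were not used here, so the depth of the libraries was not measured. The 95% Wilson intervals reflect counting error alone. Differences between lists were tested by exact permutation over the 4 lists. Interval code was tested on simulated data. Python 3.11.15 with numpy 2.4.6, pandas 2.3.3, scipy 1.17.1 and matplotlib 3.10.9 was used.

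Alternatives were another number of peaks, ranking by fold, chromosomes 1 to 22 and X, stitching within 1000 bp, other overlaps, a −log10 q of at least 5, each list left out, a block for the replicate number, and the labels in place of the names. No genome or annotation of GRCh37/hg19 was used here, so genes, promoters, motifs and sequences are not reported.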

Additional observations from a re-analysis of the deposited data

How the results depend on the processing

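With the labels as the construct (the lists labelled YAP_TFE3 against those labelled YAP5SA), the log2 differences were 0.64 for peak number, 0.44 for median width and 0.26 for median fold, against −1.54, −1.42 and −0.74 by the names. The Jaccard difference within minus between constructs was 0.184, against 0.0757 by the names. The shared top peaks then came to 63.2% and the exclusive regions to 1020 for the lists labelled YAP_TFE3 and 933 for those labelled YAP5SA, so that the order of these counts turned from 473 and 918 by the names. Taking 2000 peaks per list gave 59.5% shared, 200 YT-only, 336 YAP5SA-only and 790 shared regions. Ranking by fold gave 62.6% shared and stitching 64.6%. For the longer YT list alone, 20000 peaks gave 73.7% shared and 3699 unmatched peaks, a −log10 q of at least 5 gave 75.6% and 3800, and an overlap of at least 50% gave 55.2%.

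Leaving out each list in turn gave −3.06 to −0.01 for peak number, −2.62 to −0.21 for width, −1.50 to 0.03 for fold and −0.122 to 0.386 for the Jaccard difference, which was −0.0774 without YAP5SA-named list 2. The fold difference was 0.0294 without the short YT list. The same settings gave 65.7% to 67.6% for the shared top peaks, 709 to 1440 YT-only, 1116 to 1731 YAP5SA-only and 2594 to 3186 shared regions, and 62.6% to 68.5% and 12474 to 14832 unmatched peaks for the longer YT list.

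Alternatives for the other lists were chosen after seeing the data. In the TAZ4SA-named lists the mean share of YAP5SA-only regions was 61.5%, with 54.9% at 2000 peaks, 60.6% by fold and 46.3% to 70.3% with a list left out, and that of YT-only regions was 30.5%, with 17.5% to 42.6%. In the EV-named lists the YAP5SA-only share was 15.1%, with 13.8%, 18.9% and 14.1% to 45.2%, and the YT-only share was 63.7%, with 48.8% at 2000 peaks and 41.9% to 71.7% with a list left out. The causes of these changes were not tested.

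With the replicate number as a block, the differences stayed at −1.54, −1.42 and −0.74 (exact permutation p = 1 for each) and the Jaccard difference was 0.0772 (p = 0.5). The exact permutation could not pass 0.05 with or without the block. The replicate numbers were not shown to pair the lists, since the correlation of replicate differences over the 2388 shared regions was 0.0399. Promoter shares, gene lists and motifs, and their alternatives, were not run without an annotation of the build. With 2 lists against 2, and few fragments at the summits of the short YT list, the design cannot separate construct from library.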
